A study of Mus musculus with 17 samples.

Results

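Hbb-b1 and Hbb-b2 encode adult beta-globin chains of the mouse. They are described here by the multi-way chromatin contacts of their stretch of chromosome 7 with a beta-globin enhancer and with a CTCF site. Members were the contact pairs with at least 1 fragment centred in chromosome 7, 110958000 to 110980000 (mm9), and with no partner in the stretch of the locus control region, 111004000 to 111030000. This gave 26664 of the 1033519 contact pairs listed for the beta-globin locus, 8695 of 331928 from the HS2 viewpoint and 17969 of 701591 from the beta CTCF viewpoint. Hbb-b2 was taken as 110961000 to 110962500 and Hbb-b1 as 110975000 to 110976500. The positions were given by the selection rule and not by an mm9 annotation, so exons and introns were not placed.

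The assay, Tri-C, ligates cross-linked chromatin cut with NlaIII and enriches reads that join a viewpoint fragment to further fragments, so each listed pair of fragments was seen together with the viewpoint. The erythroid cells were Ter-119+ cells selected with antibody and beads out of spleens from C57BL/6 females given phenylhydrazine, a drug that destroys red cells and fills the spleen with erythroid precursors. The ES cells were the embryonic stem cell line E14, of strain 129/Ola, a single line. The 10 erythroid and 7 ES libraries were summed into 3 biological replicates of each cell type (n = 3). No label tells whether a replicate was a separate animal or culture, so p-values may measure technical spread only. Strain moves with cell type, so their effects cannot be told apart, and the strains carry different haplotypes of these genes, whereas the reference genome is C57BL/6. The assay reads DNA contacts, so neither cell type could be checked against marker expression.

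In adult erythroid cells the beta-like globin genes are driven by the locus control region, a cluster of enhancers upstream of all of them that includes HS2. The embryonic genes lie between it and the adult genes, and Hbb-b1 is the nearer of the adult genes to it. Both adult genes are transcribed on the minus strand, so their promoters face the locus control region and their 3′ ends face the beta CTCF viewpoint. CTCF is the insulator protein found at the ends of many chromatin loops. The HS2 viewpoint lay in the gap between listed fragments at 111008334 to 111011358, and the beta CTCF viewpoint in the gap at 110954158 to 110956820. In ES cells the globin genes are silent.

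The RefSeq promoter entries of the C57BL/6J assembly are shown to compare the genes at their starts. The fragments of the gene windows themselves were not compared by sequence. In that assembly the gene in the place of Hbb-b1 is named Hbb-bs and the gene in the place of Hbb-b2 is named Hbb-bt. The 250 bases before each annotated start are given 5′ to 3′ on the minus strand, Hbb-bs from chr7:103827929-103828178 and Hbb-bt from chr7:103813924-103814173 (GRCm38.p6).
Hbb-bs: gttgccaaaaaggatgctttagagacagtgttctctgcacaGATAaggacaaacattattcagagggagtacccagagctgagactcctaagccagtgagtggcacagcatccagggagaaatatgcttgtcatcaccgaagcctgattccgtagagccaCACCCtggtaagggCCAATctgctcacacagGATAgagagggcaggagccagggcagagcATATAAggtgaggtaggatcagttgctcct
Hbb-bt: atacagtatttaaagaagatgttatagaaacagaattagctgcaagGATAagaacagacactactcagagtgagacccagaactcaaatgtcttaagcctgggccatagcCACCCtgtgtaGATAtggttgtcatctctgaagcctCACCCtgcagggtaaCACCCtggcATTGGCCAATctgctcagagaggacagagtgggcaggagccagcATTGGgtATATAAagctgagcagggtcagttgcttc
Capitals mark 4 motifs on either strand: CCAAT of the CCAAT-box factors, then CACCC of the KLF factors, GATA of the GATA factors and ATATAA of the TATA box. The 2 sequences aligned with 182 identical bases in 258 columns, 70.5%, and with 75.5% identity over the last 100 bases, 77 of 102 columns. Hbb-bt held 3 copies each of CCAAT and CACCC, with 2 of the CCAAT copies on the other strand, and Hbb-bs held 1 of each. Both held 2 copies of GATA and 1 of ATATAA. Of 32851 mouse promoter entries, 33.8% held CCAAT in the same window, 52.0% CACCC, 53.6% GATA and 9.1% ATATAA. Neither promoter held the NlaIII site CATG, which 53.9% of entries held. A motif match describes the letters only.

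Counts per table differed widely. The HS2 replicates held 222562 to 464338 contact pairs in erythroid cells and 84849 to 272616 in ES cells, and the beta CTCF replicates 658673 to 1082506 in erythroid cells and 93686 to 785662 in ES cells. Pairs with no fragment on chromosome 7 made up 40.2% to 57.96% of the HS2 table in erythroid cells against 26.8% to 37.2% in ES cells. From beta CTCF they made up 39.8% to 54.4% in erythroid cells against 24.2% to 45.01% in ES cells. These shares enter the total against which levels are given, and their part in the results was not tested. All levels below are per 1000 contact pairs of the table unless said otherwise, a pair with both fragments in a feature or in different features adding 1 for each fragment.

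From HS2, the adult region took a larger share of contacts in erythroid cells than in ES cells. Member pairs made up 48.3, 45.7 and 56.5 per 1000 in the erythroid replicates, against 23.4, 12.3 and 11.7 in the ES replicates. The groups did not overlap, with means of 50.2 ± 5.63 in erythroid and 15.8 ± 6.59 in ES cells (SD, n = 3; two-sided exact permutation test, p = 0.1, the lowest possible with 3 against 3). Per 1000 pairs within chromosome 7 the means were 123 ± 13.1 in erythroid cells and 26.3 ± 12.03 in ES cells (n = 3, exact permutation p = 0.1). For beta CTCF the order was the opposite but the groups overlapped. Member pairs made up 29.0, 22.1 and 43.9 per 1000 in erythroid cells, against 54.1, 55.9 and 37.5 in the ES replicates (exact permutation p = 0.2, n = 3). Counting each fragment pair once per library removed that overlap, with means of 24.0 ± 6.26 in erythroid cells and 36.3 ± 4.04 in ES cells (n = 3, exact permutation p = 0.1).

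The windows of the 2 genes could not be read as separate genes. Each window held 5 fragments at matching places, 971, 122, 102, 25 and 278 bp long in Hbb-b1 and 888, 122, 102, 25 and 281 bp long in Hbb-b2. From HS2, the 278 bp fragment of Hbb-b1 had 5429 counts in erythroid cells and its 281 bp counterpart in Hbb-b2 had 5191. In ES cells these fragments had 633 and 655 counts. The matching fragments of the 2 genes differed from HS2 by log2 ratios between -0.06 and 0.07 in erythroid cells and between -0.06 and 0.30 in ES cells. Seen from beta CTCF, the ratios lay between -0.08 and 0.03 in erythroid cells and between -0.38 and 0.07 in ES cells.

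Fragment pairs inside the windows joined the 2 copies as often as they stayed within a copy. For the 122 and 102 bp fragments seen from HS2 in erythroid cells, 627 counts lay within Hbb-b1 and 648 within Hbb-b2, while 689 and 630 joined a fragment of one gene to a fragment of the other. In ES cells the same pairs had 69 and 79 counts within Hbb-b1 and Hbb-b2, and 67 and 66 across. Over all pairs of differently placed fragments, 50.4% of 10418 counts joined the copies in erythroid cells and 49.01% of 1114 in ES cells from HS2. Seen from beta CTCF, the share was 50.2% in both cell types, of 9965 and 6354 counts. The share lay between 48.1% and 51.4% in each of the 12 combinations of replicate and viewpoint, so no cell type or viewpoint stood apart in the plot of counts within and across the copies. Pairs of the same placed fragment of each gene, which exist only across copies, added 3032 counts in erythroid cells and 363 in ES cells from HS2.

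**Figure D1:**
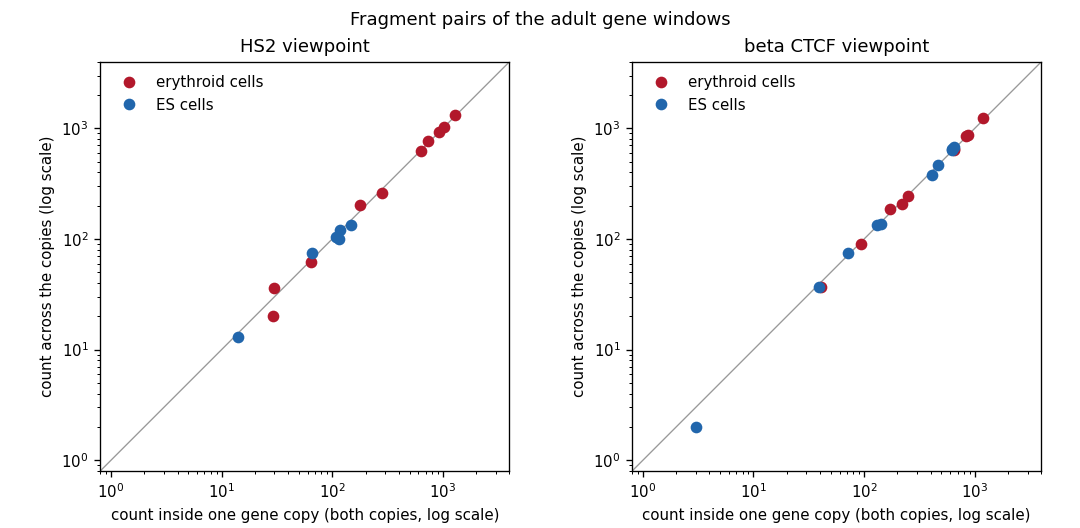
Each point is a pair of fragment places in the adult gene windows, with its count inside one gene copy (x, both copies summed) and across the copies (y), on log scales, summed over 3 replicates; places with a count of 0 are not drawn. Erythroid and ES points lie along the line of equal counts from both viewpoints, with ratios between 0.690 and 1.2 for HS2 in erythroid cells and between 0.868 and 1.15 in ES cells.

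Partners outside the windows were listed most unequally with the genes on the 3′ side of Hbb-b2. From HS2 in erythroid cells, fragments of the 1.5 kb on the 3′ side next to Hbb-b2 were paired 52 times with Hbb-b1 and 116 times with Hbb-b2, a log2 ratio of -1.16. In ES cells the counts were 3 with Hbb-b1 and 14 with Hbb-b2. From beta CTCF, in the same order of genes, they were 81 and 234 in erythroid cells and 80 and 279 in ES cells. The outermost 1.5 kb of that side had 38 counts with Hbb-b1 and 95 with Hbb-b2 from beta CTCF in ES cells (log2 -1.32), but 175 and 197 in erythroid cells. The 2.5 kb next to the 3′ end of Hbb-b1 had 183 counts with Hbb-b1 and 129 with Hbb-b2 from HS2 in erythroid cells (log2 0.50). The outermost stretch beyond its promoter had 76 and 51 from beta CTCF in erythroid cells (log2 0.58). For the 1.75 kb next to the promoter of Hbb-b1, 194 counts were with Hbb-b1 and 163 with Hbb-b2 from HS2 in erythroid cells. Values given below for the windows of Hbb-b1 and Hbb-b2 therefore describe the pair of genes, and what tells the genes apart is the sequence beside them.

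From HS2, contacts with the windows of both adult genes rose in erythroid cells about as far as each other. Hbb-b1 was contacted 18.8, 16.8 and 21.1 times per 1000 in the erythroid replicates, against 5.69, 4.11 and 3.29 in the ES replicates. Hbb-b2 was contacted 18.5, 15.7 and 21.1 times in erythroid cells, against 5.45, 3.88 and 3.66 in the ES replicates. Every erythroid replicate lay above every ES replicate for both genes. The log2 changes were 2.11 (SE 0.41) for Hbb-b1 and 2.09 (SE 0.41) for Hbb-b2, each with an adjusted p of 0.000462 (edgeR's quasi-likelihood test, Benjamini-Hochberg over 133 features). The changes remained past the threshold in all 18 alternative settings, with log2 values between 1.24 and 3.15 and adjusted p-values up to 0.0307. With all pairs inside the gene windows left out they were 1.93 for Hbb-b1 and 1.82 for Hbb-b2.

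**Figure D2:**
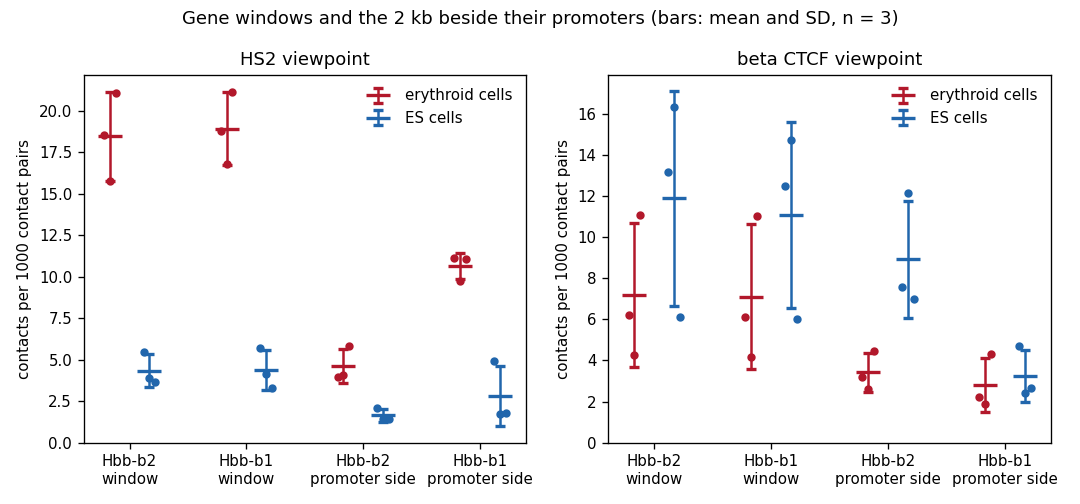
Contacts per 1000 contact pairs (y) with the windows of Hbb-b2 and Hbb-b1 and with the 2 kb beside their promoters, from HS2 (left) and beta CTCF (right). Points are the 3 replicates of erythroid cells (left of each pair) and ES cells (right), with mean and SD; from HS2 all erythroid points lie above all ES points for the 4 features, and from beta CTCF only the promoter side of Hbb-b2 has groups that do not overlap, with ES cells higher.

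Around the genes, 4 of the 11 features of the region rose from HS2, the 2 gene windows and 2 stretches outside them. All 11 had a positive log2 change. Of the 133 features of the 150 kb window on either side, 3.01% were called as higher, which are these same 4. In either direction 17.3% were called. The 2 gene windows share the pairs that join them, so their calls are not independent. Groups did not overlap for 9 of the 11, against 39.8% of all features. The median log2 change was 1.73 over the region and -0.82 over the window. Besides the genes, the 1.75 kb beyond the promoter of Hbb-b1 rose by 1.92 (SE 0.50) on the log2 scale (edgeR adjusted p = 0.0101). There the erythroid replicates had 11.1, 9.73 and 11.05 contacts per 1000, against 4.91, 1.73 and 1.75 in the ES replicates. The outermost 1.5 kb on the 3′ side rose by 2.14 (SE 0.65; edgeR adjusted p = 0.0197). Its call was lost with the replicate block (edgeR adjusted p = 0.0584), with widened gene windows (0.0879) and without any 1 of erythroid replicates 1, 2 and 3 and ES replicate 2 (0.0504 to 0.128). The call of the promoter stretch missed the threshold when any 1 of erythroid replicates 1 and 2 and ES replicate 2 was left out (0.0504 to 0.0623). The other 7 features had log2 changes between 0.90 and 2.11 that did not pass the threshold. With an estimated scaling (TMM factors) 9 of the 11 were called, among 11 higher and 12 lower calls in the window, against 4 higher and 19 lower with the table total. With the chromosome 7 total as library size there were 11 higher and 13 lower calls, with DESeq2 13 and 12.

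Per kb, contacts from HS2 peaked on the gene windows, pairs inside them included, and dropped steeply between them. The windows of Hbb-b1 and Hbb-b2 had 12.6 ± 1.46 and 12.3 ± 1.78 contacts per kb in erythroid cells, with 2.91 ± 0.81 and 2.89 ± 0.65 in ES cells (SD over 3 replicates). Pairs with both fragments in the gene windows, adding 1 contact per fragment, made up 13.5 ± 3.11 per 1000 in erythroid cells and 2.94 ± 0.83 in ES cells. Pairs with 1 fragment there made up 10.4 ± 1.55 in erythroid cells and 2.82 ± 1.57 in ES cells, over both 1.5 kb windows. The 1.75 kb beyond the promoter of Hbb-b1 had 6.07 ± 0.44 per kb in erythroid cells. That level includes pairs with both fragments in the stretch. How far the higher level of the gene windows rests on pairs inside them was not tested. Of the 5 pieces of 2.5 kb between the genes, the one next to Hbb-b2 had 1.97 ± 0.38 contacts per kb in erythroid cells and 0.69 ± 0.16 in ES cells, and the one next to Hbb-b1 had 2.49 ± 0.38 in erythroid cells and 1.15 ± 0.50 in ES cells. The lowest piece lay in the middle, 110967500 to 110970000, with 0.18 ± 0.03 in erythroid cells and 0.05 ± 0.09 in ES cells. It holds 3 listed fragments, 1111, 1157 and 549 bp long. From beta CTCF the same middle piece had the lowest mean in both cell types, at 0.30 ± 0.06 contacts per kb in erythroid cells and 0.19 ± 0.25 in ES cells. In ES replicate 2 the next piece towards Hbb-b2 was lower, at 0.004 against 0.085. From HS2 the middle piece had 0.157 contacts per kb in ES replicate 1 and 0 in ES replicates 2 and 3. A dip between the genes was thus shared by viewpoints and cell types. Peaks on the genes were less distinct from beta CTCF. The outermost 3′ piece had a mean of 4.83 per kb in erythroid cells, against 4.79 on Hbb-b2 and 4.75 on Hbb-b1, and in ES replicate 3 both 3′ pieces, at 5.92 and 4.90, lay above Hbb-b2 at 4.09. From HS2, 75 fragments of the region were listed, all with counts in each erythroid replicate, and 58 with counts in every ES replicate.

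**Figure D3:**
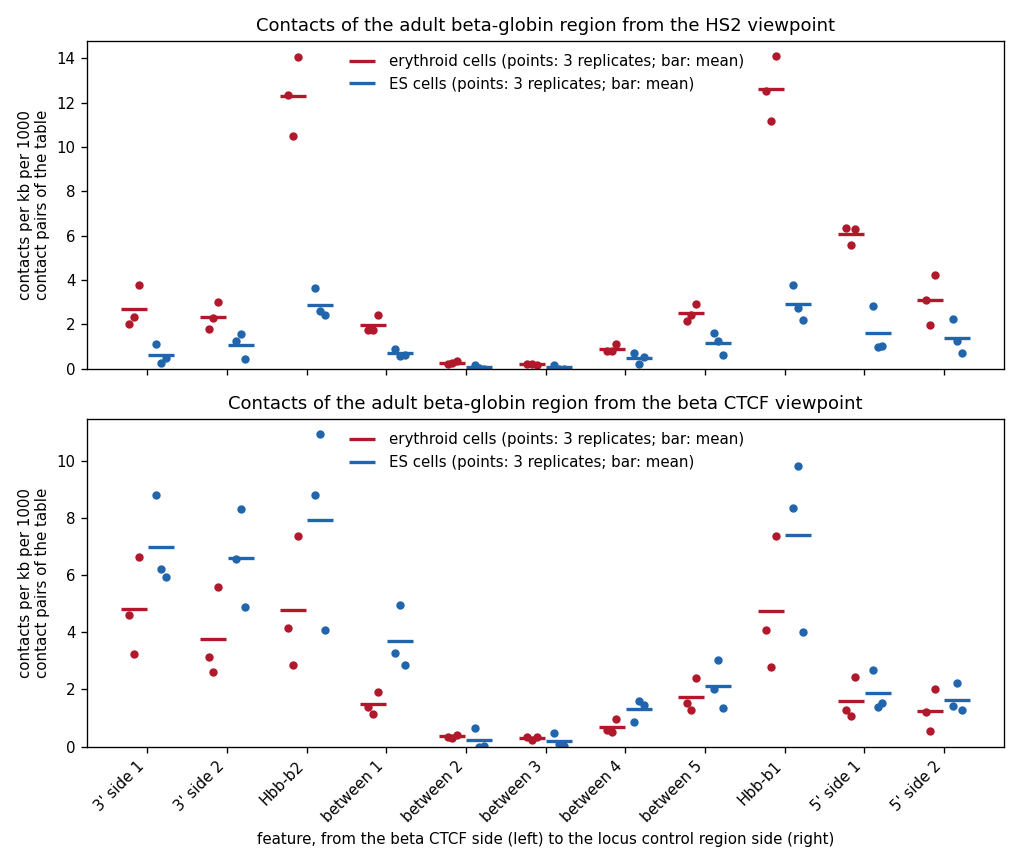
Contacts per kb and per 1000 contact pairs (y) are shown for the 11 features of the adult region, from HS2 (top) and beta CTCF (bottom). Features are ordered from the beta CTCF side to the locus control region side. Levels on the gene windows include pairs with both fragments in these windows. Points are 3 erythroid (left) and 3 ES (right) replicates with their means; both viewpoints show a dip between the genes, and HS2 a peak on each gene, with erythroid means higher from HS2 at each feature and ES means higher from beta CTCF at 9 of 11.

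The 2 kb beside each promoter, which lie outside the matching fragments, told the genes apart. Seen from HS2, the promoter side of Hbb-b1 had 11.1, 9.73 and 11.05 contacts per 1000 in erythroid cells and that of Hbb-b2 had 3.98, 4.04 and 5.82. In ES cells the promoter side of Hbb-b1 had 4.91, 1.73 and 1.75 and that of Hbb-b2 had 2.05, 1.41 and 1.42. The side of Hbb-b1, the gene nearer to the enhancer, was the higher one in every replicate of both cell types in these summed counts. In ES cells this order depended on the counting: the log2 ratio of Hbb-b1 over Hbb-b2 was -0.27 in ES replicate 2 with each fragment pair counted once. In first technical replicates it was -0.77 in ES replicate 2 and -0.17 in ES replicate 3, with an ES mean of 0.03. In the summed counts the ratio was 1.22 ± 0.28 in erythroid cells and 0.62 ± 0.55 in ES cells (SD, n = 3; p = 0.2 by exact permutation). The ratio of the gene windows themselves was 0.04 ± 0.05 in erythroid cells and 0.00 ± 0.13 in ES cells (n = 3, exact permutation p = 0.8). The promoter side was added as a measure after the data had been examined.

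From beta CTCF, the genes had lower means in erythroid cells than in ES cells, but the groups overlapped and no change was called. Hbb-b2, the nearer gene to this viewpoint, was contacted 6.22, 4.27 and 11.07 times per 1000 in the erythroid replicates, against 13.2, 16.4 and 6.14 in the ES replicates. Hbb-b1 was contacted 6.14, 4.18 and 11.04 times in erythroid cells, against 12.5, 14.7 and 6.00 in the ES replicates. Erythroid replicate 3 lay above ES replicate 3 for both genes. The log2 changes were -0.73 (SE 0.51) for Hbb-b2 and -0.64 (SE 0.50) for Hbb-b1, with edgeR adjusted p-values of 0.596 and 0.617. They were negative in all 18 alternatives, between -1.18 and -0.24, with adjusted p-values of 0.0802 or more.

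None of the 11 features of the region was called from beta CTCF, where 0% of the window's 133 features were called by edgeR in either direction, and 15 of the 133 had an unadjusted p under 0.05. Within the region 1 feature had such a p, the 2.5 kb next to the promoter of Hbb-b2. It had 3.71 contacts per 1000 in erythroid cells and 9.22 in ES cells, that is, -1.31 (SE 0.43) on the log2 scale (edgeR adjusted p = 0.228), and was the 1 feature of 11 whose groups did not overlap, against 15.8% of the window. DESeq2 called 2 of the 11 as lower and 13 features in all. Without ES replicate 1, which held most of the ES counts, edgeR called 24 features as higher and 7 as lower, 2 of the higher ones in the region, the second and the third of the 2.5 kb pieces counted from Hbb-b2.

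The promoter sides separated the genes from this viewpoint too. That of Hbb-b2 had 3.18, 2.63 and 4.47 contacts per 1000 in erythroid cells, against 7.59, 12.2 and 7.0 in the ES replicates. That of Hbb-b1 had 2.24, 1.89 and 4.29 in erythroid cells, against 4.72, 2.40 and 2.67 in the ES replicates. Only the first had groups that did not overlap. The log2 ratio of Hbb-b1 over Hbb-b2 was -0.35 ± 0.25 in erythroid cells and -1.47 ± 0.83 in ES cells (SD, n = 3; p = 0.1 by exact permutation, the lowest possible), so in ES cells the nearer gene's side was favoured more, in all 3 replicates.

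**Figure D4:**
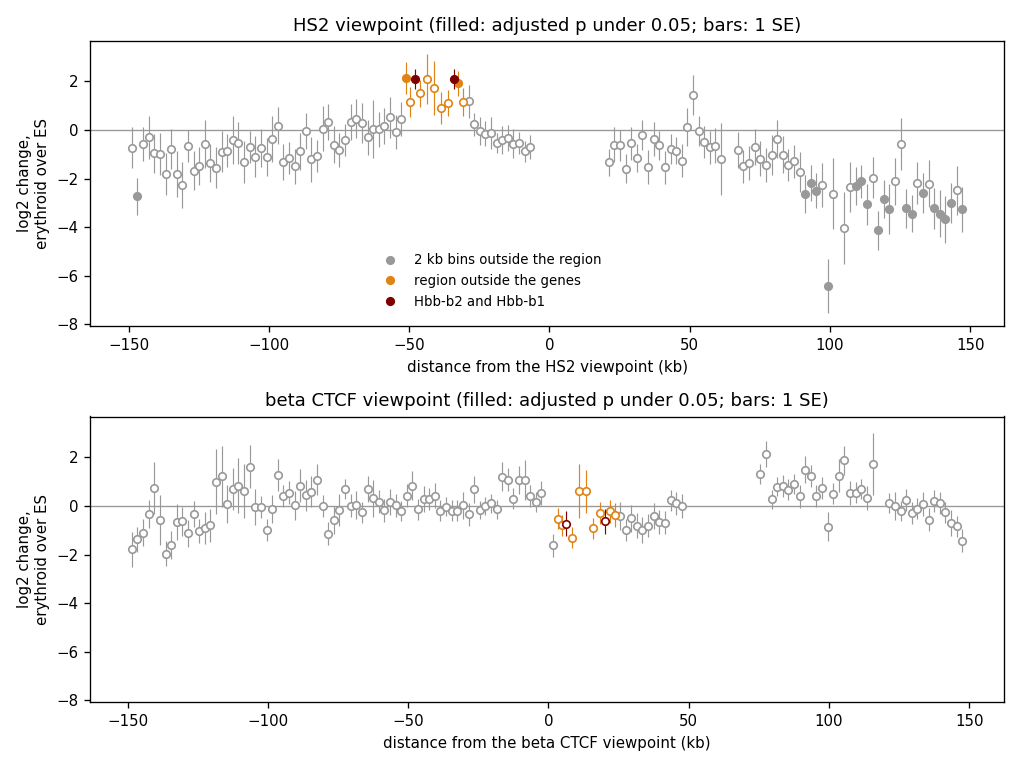
Log2 change of contacts, erythroid over ES (y, bars 1 SE), by distance from the viewpoint in kb (x), for 133 features from HS2 (top) and from beta CTCF (bottom); filled points have an edgeR adjusted p under 0.05. From HS2 the region stands at 0.90 to 2.14 while the median of the window is -0.82; from beta CTCF no point is filled and both genes lie below 0.

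The level of the gene contacts from HS2, relative to that from beta CTCF, was higher in every erythroid replicate than in every ES replicate. The log2 ratio of HS2 over beta CTCF levels, over all pairs with a gene fragment, was 1.52, 1.90 and 0.83 in erythroid cells, against -1.19, -2.10 and -0.84 in the ES replicates. The means were 1.41 ± 0.54 in erythroid cells and -1.38 ± 0.65 in ES cells (SD, n = 3; p = 0.1 by exact permutation, the lowest possible). Each level in this ratio is relative to its own table, so its zero carries no meaning and only the difference between cell types, 2.79, can be read.

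Among the 21 pairs of the 6 coarser features of the region, the pair joining the windows of both genes had the highest mean from HS2 in both cell types; from beta CTCF pairs inside the 3′ side had a slightly higher one. From HS2, the pair of both genes made up 8.40, 6.97 and 9.91 per 1000 in erythroid cells, against 2.08, 2.11 and 1.25 in the ES replicates. Their log2 change was 2.21 (SE 0.53), with an edgeR adjusted p of 0.00919 over 295 feature pairs. This was the only call among the 21. It also makes up the 0.339% of all pairs called as higher, while 1.36% were called in either direction. Groups did not overlap for 19 of the 21 pairs, against 20% of all pairs. The call was lost in 8 alternatives: with each fragment pair counted once (log2 0.16, adjusted p = 0.864), with the replicate block (2.23, adjusted p = 0.623), without a minimum count, with first technical replicates only, and without any 1 of erythroid replicates 1 and 2 and ES replicates 1 and 2. In the first of these a library can hold at most 25 such pairs, 5 by 5 fragments. Pairs inside Hbb-b1 had a log2 change of 2.15 (SE 0.72) and pairs inside Hbb-b2 of 2.19 (SE 0.73), both with an edgeR adjusted p of 0.0844.

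Pairs of a gene with its surroundings did not pass the threshold. From HS2 the pair of Hbb-b2 with the 3′ side had 239 counts in erythroid cells and 14 in ES cells (edgeR log2 3.06, SE 1.48, adjusted p = 0.388). The pair of Hbb-b1 with the stretch beyond its promoter had 231 counts in erythroid cells and 64 in ES cells (edgeR log2 1.37, SE 1.29, adjusted p = 0.686). No pair of a gene with a feature outside the region was called from either viewpoint. From beta CTCF the pair of both genes made up 2.48, 1.68 and 4.62 per 1000 in erythroid cells, against 4.88, 6.58 and 1.90 in the ES replicates. Its log2 change was -0.60 (SE 0.55; edgeR adjusted p = 0.895). None of the 21 pairs of the region was called there, where 0% of 1084 pairs were called as higher and 0.0923% in either direction, and none of the 21 had an unadjusted p under 0.05. DESeq2 likewise called none of the 21 from beta CTCF, and 12 from HS2.

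Against an expectation fitted per replicate from each feature's own contact frequency and from separation, the gene pair was far in excess in every replicate of both cell types. From HS2 it had 8283 counts in erythroid cells where 71.5 were expected, and 909 in ES cells where 8.48 were expected. The log2 ratio of observed over expected was 6.81 ± 0.26 in erythroid cells and 7.52 ± 1.5 in ES cells (SD, n = 3; p = 0.8 by exact permutation). The difference from HS2, -0.71, was -1.79 with each fragment pair counted once and -1.22 in first technical replicates. In both cases the groups did not overlap (n = 3, exact permutation p = 0.1). With 4 kb bins outside the region the difference was 0.19 (exact permutation p = 0.7). Counted once, a library can hold at most 25 pairs joining the genes, and the part of this limit was not tested. From beta CTCF the ratio was 6.97 ± 0.24 in erythroid cells and 6.50 ± 0.62 in ES cells (n = 3, exact permutation p = 0.4). With 4 kb bins it was 5.51 ± 0.12 in erythroid cells and 4.83 ± 0.11 in ES cells, with groups that did not overlap (n = 3, exact permutation p = 0.1). The excess is in the same fragments whose pairs were listed across the copies as often as within one. No source used here tells how reads were assigned to a copy, and its part in the excess was not tested.

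On the 2 kb promoter sides, which keep the genes apart, the measure was fitted anew with gene pairs left out and showed no such excess. From HS2 the promoter sides were joined 22, 9 and 26 times in erythroid cells, where 16.7, 11.1 and 25.1 were expected, and 9, 0 and 0 times in ES cells, where 5.64, 0.201 and 0.915 were expected. The erythroid log2 ratios were 0.40, -0.31 and 0.05. From beta CTCF the counts were 37, 4 and 15 in erythroid cells against expected 11.1, 6.49 and 24.0, and 30, 0 and 1 in ES cells against expected 41.4, 2.03 and 4.25. The 37 counts of erythroid replicate 1 came from 1 fragment pair. No log2 ratio could be taken for ES replicates with a count of 0, so the cell types were not compared against these expectations. Levels of this joining, not corrected for contact frequencies, did not overlap between the cell types from HS2. They were 0.063 ± 0.033 in erythroid cells and 0.011 ± 0.019 in ES cells (SD, exact permutation p = 0.1, the lowest possible). From beta CTCF the groups overlapped (exact permutation p = 0.6). The levels there were 0.025 ± 0.027 in erythroid cells and 0.015 ± 0.020 in ES cells.

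**Figure D5:**
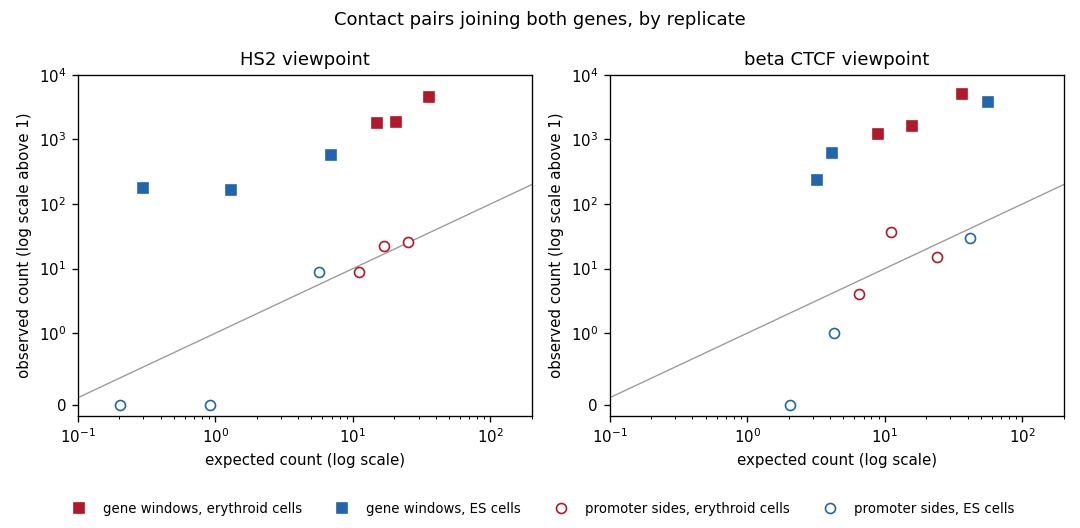
Observed (y, log scale above 1) against expected (x, log scale) counts of contact pairs that join both genes, by replicate, for the gene windows (squares) and the promoter sides (circles), in erythroid and ES cells. The gene windows lie far above the line of equality in both cell types. An example is 4601 observed against 35.8 expected in erythroid replicate 3 from HS2. The promoter sides, fitted with gene pairs left out, lie closer to the line, on both sides of it from HS2. From beta CTCF all ES points and those of erythroid replicates 2 and 3 lie below it, and erythroid replicate 1 lies above.

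Among the partners of the region, the most distant classes had shares that did not overlap between the cell types in the summed counts. From HS2, partners on other chromosomes made up 25.1% ± 6.16 of member counts in erythroid cells and 13.99% ± 2.42 in ES cells, and partners on chromosome 7 beyond the 150 kb window made up 14.8% ± 0.97 in erythroid cells and 28.4% ± 7.14 in ES cells (SD over 3 replicates). For beta CTCF the shares were 19.5% ± 3.30 in erythroid cells and 12.98% ± 2.49 in ES cells for other chromosomes, and 23.8% ± 2.75 in erythroid cells and 33.1% ± 7.99 in ES cells for distant chromosome 7. The groups did not overlap for these 4 shares, each with an exact permutation p of 0.1 and an adjusted p of 0.5 over 20 comparisons (n = 3). In first technical replicates 3 of the 4 overlapped, other chromosomes from HS2 (n = 3, exact permutation p = 0.3) and from beta CTCF (0.4), and distant chromosome 7 from beta CTCF (0.2). Pairs joining both genes made up 16.7% ± 1.27 of member counts from HS2 in erythroid cells and 12.3% ± 4.32 in ES cells (n = 3, exact permutation p = 0.2). With each fragment pair counted once the order was the opposite and the groups did not overlap, 2.42% ± 0.35 in erythroid cells and 5.78% ± 2.71 in ES cells (n = 3, exact permutation p = 0.1). In this counting a library can hold at most 25 pairs joining the genes, whereas the other members have no such limit. The replicates held 57, 64 and 83 of these pairs in erythroid cells and 42, 22 and 15 in ES cells. The part of this limit and of depth in the order was not tested. The share of all pairs in the table with no fragment on chromosome 7 was higher in erythroid cells as well from HS2, while the groups overlapped from beta CTCF. Its part in the shares of partners on other chromosomes was not tested. Partners in the stretch of the embryonic genes, between the region and the locus control region, made up 5.40% ± 0.64 in erythroid cells and 7.13% ± 3.91 in ES cells from HS2 (n = 3, exact permutation p = 0.5). Partners within the region but outside both genes had shares that overlapped between the cell types from both viewpoints in the summed counts. Pairs of a gene with the region outside both genes and the stretch between them depended on the counting. Counted once from HS2 they did not overlap, 1.75% ± 0.07 in erythroid cells and 1.30% ± 0.43 in ES cells (n = 3, exact permutation p = 0.1). Nor did they in first technical replicates from beta CTCF, 1.56% ± 0.11 in erythroid cells and 1.06% ± 0.57 in ES cells (exact permutation p = 0.1). First technical replicates from HS2 and pairs counted once from beta CTCF overlapped.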

How the data were processed

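Per the file headers, the authors' tables give, for 2 NlaIII fragments seen with the viewpoint, a count in each of 17 libraries; the counts are whole numbers as deposited. Per the submitters' processing notes, Trim Galore, Bowtie and the build mm9 were used. The sources used here do not say how repeated reads, or reads that align in several places, were handled. Technical replicates were summed per biological replicate. Contacts were counted in 11 features of the adult region and 2 kb bins within 150 kb of the viewpoint (minimum 50 counts), and pairs in 6 features and 4 kb bins (minimum 30), without the locus control region and fragments within 1 kb of the viewpoint. edgeR 4.0.16 in R 4.3.3 tested erythroid against ES cells, with the table total as library size and adjusted p under 0.05; the SE is the log2 change divided by the root of F. DESeq2 1.42.0 was an alternative. Single values had exact permutation tests. Expected pair counts came from 200 rounds of iterative scaling with the gene pair itself masked. For the promoter sides, gene pairs were left out. Tested on simulated data, edgeR found 38% of features changed by log2 2 from HS2 and 65.5% from beta CTCF. The named features were both genes, all features of the region and their pairs. Members and lists were chosen with earlier results of these data known. Counts are of reads without molecular identifiers.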

Additional observations from a re-analysis of the deposited data

How the results depend on the processing

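In every alternative run, the gene windows stayed called from HS2 and uncalled from beta CTCF. The region features called from HS2, 4 of 11, became 8 with the window total, 9 with the chromosome 7 total or TMM factors, 10 with DESeq2, 8 with each fragment pair counted once, 5 with the replicate block, 4 with widened windows, and 2 to 7 with 1 replicate left out (2 without erythroid replicate 1 or 2 or ES replicate 2, 7 without ES replicate 1). From beta CTCF, 1 feature was called with the window total or TMM factors and 2 with DESeq2, and 0 to 2 with 1 replicate left out. Region pairs called from HS2, 1 of 21, became 5 with the window total, 8 with the chromosome 7 total or TMM factors, 12 with DESeq2, 2 with each pair counted once or with windows widened by 500 bp, 0 with no minimum count, the replicate block or first technical replicates only, and 0 to 2 with 1 replicate left out. The pair of both genes then had log2 changes of 2.21 with no minimum count, 2.23 with the replicate block, 1.97 in first technical replicates, 0.16 counted once, and 2.01 to 2.33 with 1 replicate left out. The replicate numbers did not pair the samples: same-numbered erythroid and ES replicates had correlations of -0.23 to 0.20 in their deviations, and the block ended no other gene call. Uncalled changes from beta CTCF turned positive beside Hbb-b1: 0.17 for the 2.5 kb next to its 3′ end and 0.089 and 0.018 for the stretches beyond its promoter with the chromosome 7 total, and for the first of these stretches 0.064 in first technical replicates and 0.36 with windows widened. With 1 replicate left out these lay between -0.60 and 0.050 for the 3′ piece and between -0.66 and 0.15 for the first promoter stretch. The difference in member share from HS2, 34.4 per 1000, was 21.5 counted once and 96.7 per 1000 chromosome 7 pairs. The difference between cell types in the log2 ratio of Hbb-b1 over Hbb-b2, 0.04 from HS2 and 0.07 from beta CTCF, was 0.61 and 1.13 on the promoter sides and 0.23 with widened windows from beta CTCF. The difference in log2 observed over expected from beta CTCF, 0.47, was -0.60 counted once, -0.18 in first technical replicates and 0.68 with 4 kb bins; that from HS2, -0.71, was -1.79, -1.22 and 0.19 in the same order, and 0.14 without ES replicate 2. The causes were not tested. Of 871 alternative values, 753 were labelled the same as the main value. A log2 change had to keep its direction and side of the threshold. A count of calls had to stay within a set fold of the main count. Other values had to stay within the larger group SD of the main value, so their sign could change. Counting pairs with the locus control region could not change feature pairs, since no feature lies there, and was not run for them. ES replicates 2 and 3 limit the pair counts.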
